A study of Mus musculus with 4 samples.

Results

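This account describes 56 genes of autophagy and of the vacuolar proton pump in the brain cortex of SAMP8 mice given TCQA or water. The genes were chosen by name: every probe set whose platform gene symbol begins with Atp6v0, Atp6v1, Atp6ap, Atg, Ulk, Gabarap or Map1lc3 followed by the usual subunit number or letter, together with Becn1, Sqstm1, Tfeb and Tfe3. The rule uses symbols alone, and the 56, each with 1 probe set, were drawn from 22206 gene probe sets. Of these, 23 encode subunits or accessory proteins of the proton pump, 31 are autophagy genes or their regulators, and 2 carry a pump prefix without being known pump subunits. The proteolipid gene Atp6v0c was not analysed here. SAMP8 is an inbred mouse strain that ages early and develops learning deficits. The mice were male and were kept 1 to a cage for 4 months beginning at 7 months of age. The TCQA group then received TCQA, a compound named in the labels only by that abbreviation, by mouth at 5 mg/kg daily for 1 month from 11 months of age, and the control group received MilliQ water. Each group had 2 Clariom S arrays, and whether 2 arrays of 1 group stand for 2 animals is not stated in the labels, so the p-values measure only how far these 4 samples spread, and that spread may be technical. All 4 arrays were from SAMP8 mice, so no normally ageing strain stands beside them here.

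Autophagy carries cytoplasm and worn organelles to the lysosome inside a double membrane. The ULK kinase complex starts it, a lipid kinase complex around Beclin 1 marks the membrane, and 2 conjugation reactions attach LC3 and GABARAP proteins to its lipid, where cargo receptors such as p62 dock. The vacuolar proton pump acidifies the lysosome with a cytosolic V1 sector that hydrolyses ATP and a membrane V0 sector that conducts protons. In neurons the same pump also loads synaptic vesicles, since the proton gradient drives transmitter uptake. TFEB and TFE3 are transcription factors known to switch on lysosomal and autophagy genes.

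The values were log2 signals, and gene medians lay between 7.12 and 7.17 on the 4 arrays. The negative control probe sets had medians of 7.17 to 7.32, and this level was used to mark dim genes; it is no floor of the signal. Cortical excitatory neuron markers were all above it, with Slc17a7, the cortical vesicular glutamate transporter, at 16.39 and 16.03 in TCQA arrays and 16.68 and 16.38 in control arrays. Choroid plexus markers differed widely within both groups. Their summed signal, on the log2 scale, was 12.46 and 15.04 in TCQA arrays and 9.44 and 16.45 in control arrays, and 2 of the 6 were above the negative control median on every array. Meningeal fibroblast markers summed to 11.15 and 11.26 in TCQA arrays and to 10.11 and 11.23 in control arrays. Taken singly, all 6 had a higher TCQA mean, with a median difference of 0.51, though Col1a1 differed by only 0.01. As in the choroid plexus set, 2 of the 6 were above the negative control median on every array. Ogn, Mgp and Slc6a13 were higher at an unadjusted p under 0.05, and Ogn and Mgp each had 1 control reading under that median. Ogn was over 2-fold higher, and Mgp and Slc6a13 differed by 0.79 and 0.63. Control replicate 1 was the lowest array for both marker groups. Without it the median difference was -0.59 for the choroid plexus markers and 0.38 for the meningeal markers. Without control replicate 2 these medians were 1.24 and 0.87 in that order. The part of these tissues in the results was not tested, and medians of the autophagy and pump genes without each array are given below.

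The comparison of TCQA with control asked whether cortical levels of these genes differed after 1 month of treatment. No member differed at an unadjusted p under 0.05 (0 of 56, against 6.24% of all gene probe sets), and none met the depositors' criterion of that p with a change over 2-fold (0 of 56, against 0.374%). The smallest unadjusted p of a member was 0.0567, and after Benjamini-Hochberg adjustment over all 22206 probe sets limma gave 0.799 or more for each member. Over all genes the same fit called 0, with 1386 at an unadjusted p under 0.05, so the background of adjusted calls was 0%. The member differences had a median of -0.04 on the log2 scale and ran from -0.65 to 0.33, against a median of 0.01 over all genes. Only 2 members differed by more than 0.5 in either direction, or 3.57%, against 7.69% of all gene probe sets. The 95% confidence interval lay wholly inside a 2-fold change, up or down, for 53 of the 56, against 86.4% of all gene probe sets. The 3 whose interval reached beyond it were Atp6v0a4, Atp6ap1l and Atg16l1, each on the lower side. In tissue RNA, fewer cells of a type and less RNA per cell cannot be told apart.

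**Figure D1:**
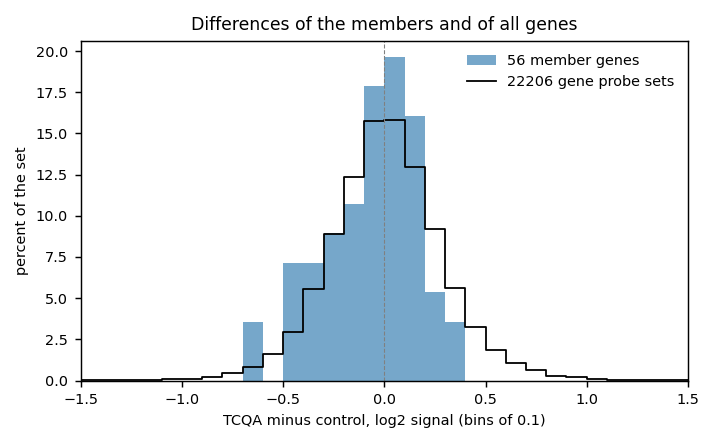
Percent of the 56 member genes (bars) and of the 22206 gene probe sets (line) in each bin of TCQA minus control log2 signal, shown from -1.5 to 1.5; a few probe sets of the whole array lie outside this range. The members run from -0.65 to 0.33 and are centred near 0, as all genes are.

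The TCQA arrays lay wholly above or wholly below the control arrays for 20 members, 35.7% of them against 36.6% of all gene probe sets. The difference was larger than the gap within either pair of arrays for 13 of the 56, against 24.5% of all gene probe sets. The sign of the difference held without each array in turn for 30 of the 56, against 49.7% of all gene probe sets. Leaving out 1 array brought a few members to an unadjusted p under 0.05, each with a lower TCQA mean. Without TCQA replicate 1 these were Atp6ap1l and Atp6v1f, and without TCQA replicate 2 Atp6v0a4. Without control replicate 1 the gene was Atg16l1, and without control replicate 2 they were Atp6v0a4 and Tfe3. The limma adjusted p stayed at 0.512 or more for each member in these fits. In the same fits 4.97% to 7.47% of all gene probe sets had an unadjusted p under 0.05, against 1 or 2 of the 56 members.

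**Figure D2:**
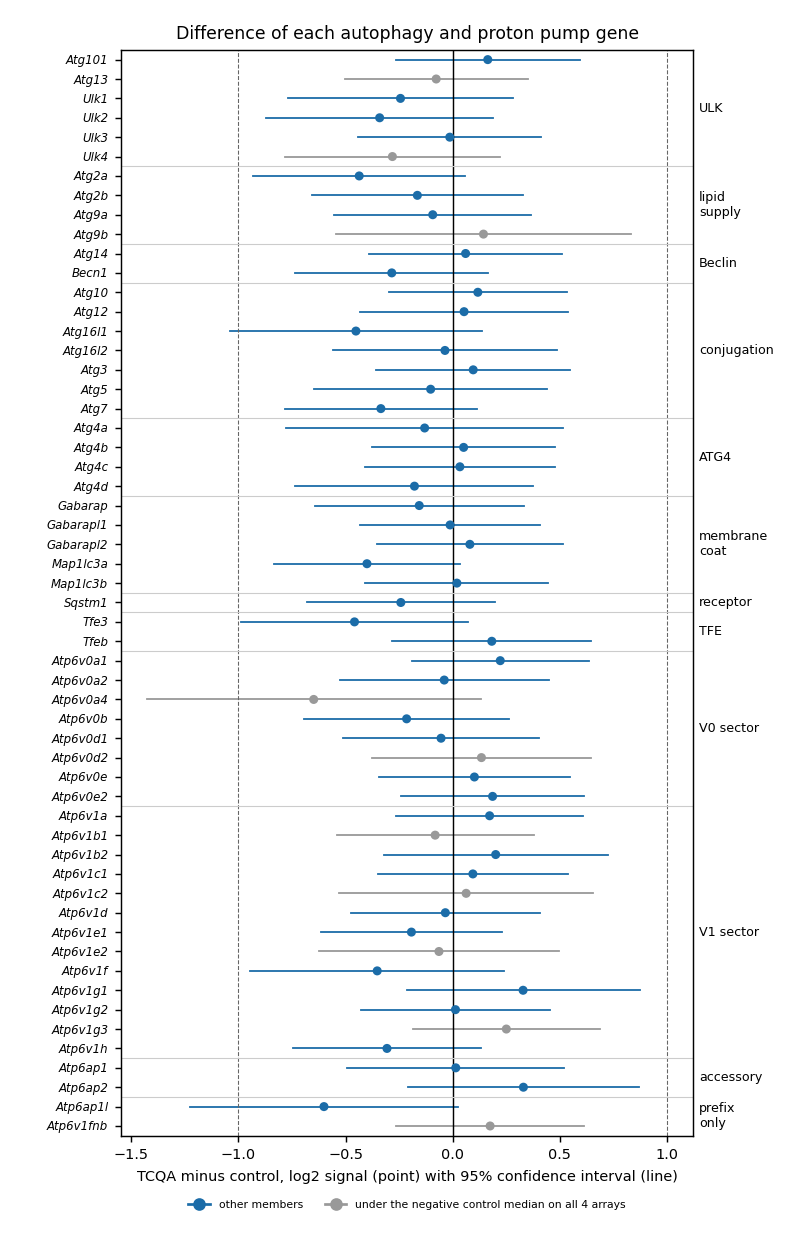
TCQA minus control log2 signal of each member (point) with its 95% confidence interval (line), grouped by role; dashed lines mark a 2-fold change and grey marks the 10 genes under the negative control median on all 4 arrays. Every interval includes 0.

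Among the 31 autophagy genes no member passed the test, and 20 had a lower TCQA mean, 64.5% against 48.9% of all gene probe sets. The TCQA arrays were wholly below the control arrays in 9 of the 31, 29.0% against 17.8% of all gene probe sets, and wholly above them in 2, 6.45% against 18.9%. The median difference was -0.09, and it lay between -0.13 and -0.03 when each array was left out in turn. These genes are not replicates of a condition, so no test was made over them. Cell type markers were offset between the groups as well. The 4 measured excitatory neuron markers all had lower TCQA means, with a median difference of -0.27 that became 0.05 without TCQA replicate 2. The 2 interneuron markers (median 0.46), 4 astrocyte markers (0.22), 4 microglia markers (0.14) and 6 meningeal markers (0.51) all had higher ones. The astrocyte median was 0.08 without control replicate 1. Other sets were mixed: 2 of 3 oligodendrocyte markers (median 0.15), 2 of 3 endothelial markers (0.15) and 4 of 6 choroid plexus markers (0.30) had higher TCQA means, and the rest had lower ones. Of 3 markers of neurons in general, Snap25 was higher by 0.62 and the other 2 had lower means. The part of these markers in the autophagy result was not tested. Of the proton pump genes 13 of 23 had a higher TCQA mean, 51.1% of all gene probe sets being the background, with a median difference of 0.01.

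The kinase complex that starts autophagy is built on ULK1 or its relative ULK2, with ATG13 and ATG101 as partners. Ulk1 signals were 7.33 and 7.74 in TCQA arrays, against 7.66 and 7.90 in control arrays. The groups overlapped, and the difference was -0.24 (SE 0.22). Ulk2 was at 12.30 and 11.84 in TCQA arrays and 12.48 and 12.34 in control arrays, and the TCQA arrays were the lower pair by a narrow margin (difference -0.34, SE 0.22). Atg101, which stabilises ATG13 in the complex, was at 8.35 and 8.23 in TCQA arrays and 8.07 and 8.18 in control arrays, the only gene of this group with a higher TCQA mean. Atg13 was dim on all 4 arrays, with a difference of -0.08. Ulk3 and Ulk4, relatives with roles mainly outside autophagy, differed by -0.01 and -0.28, and Ulk4 too was dim on every array.

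The growing membrane is fed by ATG9 vesicles and by ATG2 proteins, which pass lipid from the endoplasmic reticulum. Atg2a was at 8.16 and 8.41 in TCQA arrays, against 8.87 and 8.57 in control arrays. The TCQA pair was below the control pair, at -0.44 on the log2 scale (95% interval -0.93 to 0.06, limma adjusted p = 0.799). Atg2b overlapped between groups, at a difference of -0.17. Atg9a, the scramblase of these vesicles, was at 12.80 and 12.53 in TCQA arrays and 12.82 and 12.69 in control arrays, and its groups overlapped as well. Atg9b, the other ATG9 gene, was among the dimmest members, with no reading above 4.52.

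Beclin 1 and ATG14 belong to the lipid kinase complex that marks the site of membrane growth. Becn1 signals were 9.46 and 9.32 in TCQA arrays and 9.56 and 9.78 in control arrays. Both TCQA arrays were below both control arrays, and the difference was -0.28 (SE 0.19). Atg14 differed by 0.06, with overlapping arrays.

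Conjugation of ATG12 to ATG5, and of LC3 to lipid, runs through the activating enzyme ATG7 and the carrier enzymes ATG10 and ATG3. Atg7 was at 7.16 and 7.01 in TCQA arrays, against 7.52 and 7.32 in control arrays. The TCQA readings were the lower pair and lay under the negative control median, so the size of the difference of -0.34 (SE 0.18) is less certain. Atg10 was at 9.85 and 9.80 in TCQA arrays and 9.73 and 9.68 in control arrays, a small offset of 0.12 with the TCQA pair higher. Atg3 overlapped, with a difference of 0.10.

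ATG12, ATG5 and ATG16L1 form the complex that directs LC3 to the membrane. Atg16l1 had signals of 9.29 and 9.40 in TCQA arrays and 9.50 and 10.10 in control arrays. Control replicate 2 stood well above the other arrays, and the difference of -0.45 (SE 0.24) was -0.15 without it and -0.75 without control replicate 1. Atg5 was at 9.83 and 9.86 in TCQA arrays, against 9.69 and 10.20 in control arrays, so the TCQA readings lay between the control readings. Atg12 was at 12.45 and 12.18 in TCQA arrays and 12.39 and 12.14 in control arrays, with the first array of each group the higher. Atg16l2, a relative of Atg16l1, differed by -0.04.

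The ATG4 proteases trim LC3 and GABARAP proteins so that they can be joined to lipid, and later cut them free. Atg4b, the main protease of the family in mouse, was at 10.95 and 10.83 in TCQA arrays and 10.89 and 10.78 in control arrays. Its difference was 0.05, with a confidence interval of -0.38 to 0.48. Atg4c and Atg4d differed by 0.03 and -0.18, also with overlapping arrays. The probe set named Atg4a, at a difference of -0.13, is uncertain. Its identifier places it on chromosome 3, where RefSeq lists the pseudogene Atg4a-ps, while RefSeq places Atg4a on chromosome X. For the other 55 members the identifier and RefSeq gave the same chromosome.

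The 5 LC3 and GABARAP genes encode the proteins that coat the autophagosome membrane, and 4 of them had overlapping groups. The share without overlap was 20%, against 36.6% of all gene probe sets. The gene without overlap was Map1lc3a, which encodes LC3A, an LC3 protein of neurons among other cells. Map1lc3a signals were 9.79 and 9.78 in TCQA arrays and 10.09 and 10.29 in control arrays. The TCQA readings were nearly equal and both lay below the control readings, at -0.40 on the log2 scale (95% interval -0.83 to 0.03, limma adjusted p = 0.799). Map1lc3b, whose product LC3B is the usual marker protein of autophagosomes, was at 12.43 and 12.27 in TCQA arrays, against 12.35 and 12.32 in control arrays. The control readings lay inside the TCQA range, and the difference was 0.02 (95% confidence interval -0.41 to 0.45).

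Among the GABARAP genes, which act mainly in closing the autophagosome and joining it to lysosomes, the arrays overlapped throughout. Gabarap was at 13.90 and 13.63 in TCQA arrays and 13.79 and 14.05 in control arrays. Gabarapl1 was at 15.31 and 15.41 in TCQA arrays, against 15.41 and 15.33 in control arrays. Gabarapl2, which has a listed pseudogene of its own, was at 10.94 and 11.14 in TCQA arrays and 10.96 and 10.96 in control arrays. Their differences were -0.16, -0.01 and 0.08 in that order.

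Sqstm1 encodes p62, the receptor that ties ubiquitinated cargo to LC3 and is itself degraded by autophagy. Its signals were 13.72 and 13.50 in TCQA arrays and 13.84 and 13.87 in control arrays. The TCQA pair lay below the control pair, while the gap between the TCQA arrays, 0.21, was close to the group difference of -0.24 (95% interval -0.68 to 0.20, limma adjusted p = 0.850).

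**Figure D3:**
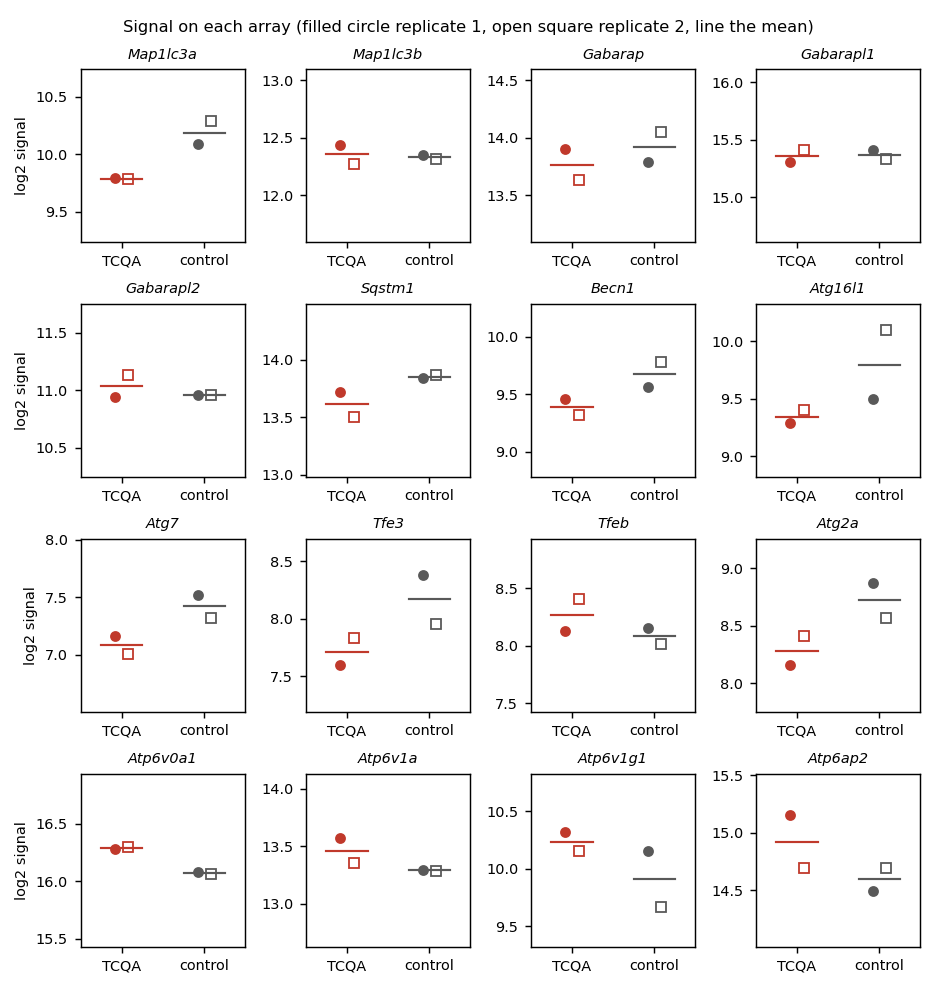
Log2 signal of 16 members on each TCQA and control array, on axes of equal span; filled circles are replicate 1, open squares replicate 2 and lines the group means. Map1lc3a, Atp6v0a1 and Atp6v1a show closely placed readings in at least 1 group, while the control readings of Atg16l1 and Atp6v1g1 lie far apart.

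The transcription factors TFEB and TFE3 drive lysosomal and autophagy genes from the nucleus, where they enter when nutrients are short or lysosomes are stressed. Tfe3 signals were 7.59 and 7.83 in TCQA arrays, against 8.38 and 7.96 in control arrays. The TCQA pair was lower, at a difference of -0.46 (SE 0.22), and the difference was -0.25 without control replicate 1. Tfeb was at 8.13 and 8.41 in TCQA arrays and 8.16 and 8.02 in control arrays. Its groups overlapped, and its mean was higher with TCQA by 0.18 (SE 0.19), so the signs of these 2 related genes were opposite. Entry of their proteins into the nucleus is not seen in RNA levels.

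TFEB is known to bind the letters CACGTG, which were counted here alone and with the flanks in TCACGTGA, and both sequences read the same on either strand. Promoters from RefSeq on GRCm38.p6, each from 250 bases before to 50 after the transcription start, were found for 45 of the 56 members. CACGTG was present for 8 of the 45 genes, 17.8% against 8.09% of all genes with a promoter. TCACGTGA, which contains it, was present for 4 of the 45, 8.89% against 1.12%. The same letters with a further G before and C after them were present for 0 of the 45, against 0.37% of all genes. The windows of these 4 are shown because they carry the letters that the named factors read, with TCACGTGA in capitals:
Atg3: ggagagtcgagTCACGTGAggccttaggtg
Atp6v0d1: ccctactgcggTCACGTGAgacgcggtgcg
Atp6v0e: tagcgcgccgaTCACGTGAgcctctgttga
Atp6v1a: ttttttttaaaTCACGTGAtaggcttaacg
They lie at chr16:45158746-45158775 on the plus strand for Atg3, chr8:105566050-105566079 on the minus strand for Atp6v0d1, chr17:26676387-26676416 on the plus strand for Atp6v0e, and chr16:44139373-44139402 on the minus strand for Atp6v1a. Counted from the transcription start, the motif begins at base -72 for Atg3, -132 for Atp6v1a, -4 for Atp6v0d1 and 3 for Atp6v0e. These 4 genes differed by 0.10, -0.05, 0.10 and 0.17 in the order printed, each with an interval that included 0. Over the 8 genes with CACGTG the median difference was 0.0026, and the differences ran from -0.34 for Atg7 to 0.17 for Atp6v1a. A match of letters describes the sequence and is no evidence of a bound site.

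The V0 sector sits in the membrane, and its large a subunit forms the path for protons and steers the pump to its organelle. Atp6v0a1, the isoform typical of neurons and synaptic vesicles, was at 16.28 and 16.30 in TCQA arrays, against 16.08 and 16.06 in control arrays. Both pairs were nearly identical within the group, and the TCQA pair lay above by 0.22 (95% confidence interval -0.19 to 0.63, limma adjusted p = 0.855), a 1.17-fold difference. Without empirical Bayes moderation its unadjusted p was 0.00327 and the smallest adjusted p of any member 0.772. Atp6v0a2, an isoform of the Golgi, differed by -0.04. Atp6v0b and Atp6v0d1, parts of the ring and of its connection to V1, differed by -0.22 and -0.05. The small subunit genes Atp6v0e and Atp6v0e2 differed by 0.10 and 0.19, and only Atp6v0e2 had both TCQA arrays above both control arrays.

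In the V1 sector the A and B subunits form the ATP-hydrolysing head. Atp6v1a was at 13.57 and 13.36 in TCQA arrays and 13.29 and 13.29 in control arrays. The TCQA pair was higher, by 0.17 (SE 0.18). Atp6v1b2, the B subunit of brain, was at 15.15 and 14.86 in TCQA arrays, against 14.62 and 14.99 in control arrays, and the groups overlapped.

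The remaining V1 subunits form the stalks and the rotor. Atp6v1g1 was at 10.32 and 10.15 in TCQA arrays and 10.15 and 9.66 in control arrays. The second TCQA reading and the first control reading were almost equal, and the difference of 0.33 (SE 0.22) was 0.08 when control replicate 2 was left out and 0.57 when control replicate 1 was. Atp6v1g2, the G subunit enriched in neurons, differed by 0.01. Atp6v1h, a regulatory subunit that joins the sectors, was at 12.68 and 12.47 in TCQA arrays, against 12.85 and 12.91 in control arrays, and the TCQA pair was the lower one (difference -0.31, SE 0.18). Atp6v1e1 also had its TCQA pair below its control pair, at a difference of -0.19. Atp6v1f, of the rotor, was at 11.13 and 10.58 in TCQA arrays and 11.36 and 11.06 in control arrays, and overlapped at a difference of -0.35. Atp6v1c1 and Atp6v1d differed by 0.09 and -0.03. Subunits of this sector, which work in a fixed ratio, had differences of either sign, but every interval included 0, so these signs are uncertain.

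**Figure D4:**
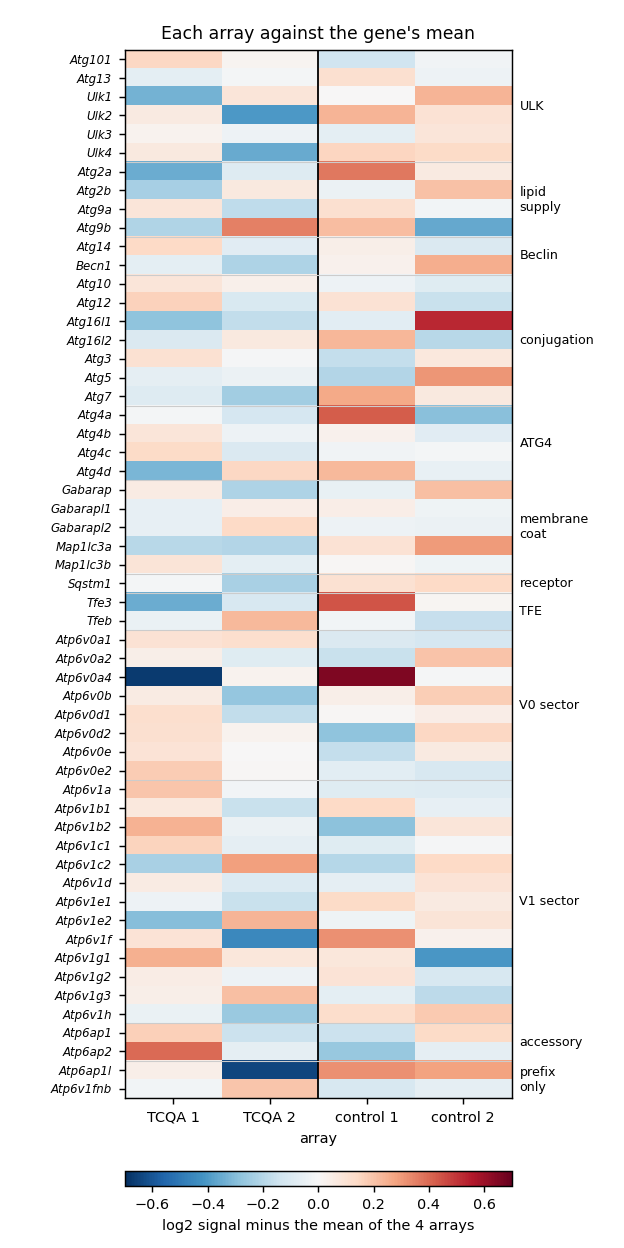
Log2 signal of each member on each array minus its mean over the 4 arrays, with TCQA arrays left of control arrays; red is above and blue below the gene's mean. The pump rows are mostly redder for TCQA replicate 1 than for TCQA replicate 2, and the autophagy rows hold 20 lower TCQA means among 31.

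The accessory proteins help to assemble and direct the pump. Atp6ap2, also known as the prorenin receptor, had the largest positive difference of the members. It was at 15.15 and 14.69 in TCQA arrays and 14.49 and 14.70 in control arrays. TCQA replicate 1 was the highest array, and TCQA replicate 2 was level with control replicate 2. The difference of 0.33 (SE 0.22) was 0.10 without TCQA replicate 1 and 0.56 without TCQA replicate 2. Atp6ap1 was at 12.82 and 12.50 in TCQA arrays, against 12.50 and 12.79 in control arrays, a difference of 0.01.

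Isoforms that are known mainly from kidney, epididymis, bone-resorbing cells or testis are Atp6v0a4, Atp6v0d2, Atp6v1b1, Atp6v1c2, Atp6v1e2 and Atp6v1g3. All 6 were under the negative control median on all 4 arrays, and the other 17 pump genes were above it on all 4. Atp6v0a4 had the most negative difference of any member, at 4.46 and 5.15 in TCQA arrays and 5.79 and 5.12 in control arrays. Its second arrays were nearly level, and the difference of -0.65 (SE 0.32) is between dim readings, so its size is uncertain. Atp6v1g3, at 6.51 and 6.67 in TCQA arrays and 6.40 and 6.28 in control arrays, was the only one of the 6 without overlap. That is 16.7% of them, against 36.6% of all gene probe sets.

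The arrays of the TCQA group differed from each other in most pump genes. Of all 23 pump genes, 18 were higher in TCQA replicate 1 than in TCQA replicate 2, 78.3% against 50.3% of all gene probe sets. Of the 17 above the negative control median 16 were, with a median gap of 0.21, while the 50.3% includes dim probe sets. In the control pair, 7 of the 17 were higher in replicate 1, where 48.1% of all gene probe sets were. Over the 23 pump genes the median difference between groups was 0.01, and it changed sign with the arrays used. It was -0.02 when TCQA replicate 1 was left out and 0.09 when TCQA replicate 2 was, and likewise -0.08 when control replicate 1 and 0.13 when control replicate 2 was left out. The choroid plexus sum was lower in TCQA replicate 1 than in TCQA replicate 2, at 12.46 and 15.04, and its part in this gap was not tested.

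The pump prefix also gathers Atp6ap1l, a gene similar to Atp6ap1, and Atp6v1fnb, named for its place beside Atp6v1f. Atp6ap1l signals were 9.86 and 9.18 in TCQA arrays and 10.14 and 10.10 in control arrays. The control readings were close together and above both TCQA readings, of which TCQA replicate 2 was far the lower. The difference was -0.60 (95% confidence interval -1.22 to 0.02, limma adjusted p = 0.799), with the smallest unadjusted p of the members, 0.0567. It was -0.26 without TCQA replicate 2 and -0.94 without TCQA replicate 1. Atp6v1fnb was dim throughout.

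Neighbouring genes of the pathway were read from lists written from general knowledge. Among 14 further initiation genes, 2 were lower at an unadjusted p under 0.05 (2.86% of all gene probe sets were) and 0 higher. Pik3r4, the regulatory subunit of the lipid kinase that Beclin 1 binds, was at 9.28 and 9.36 in TCQA arrays and 9.73 and 10.13 in control arrays, a difference of -0.61 (SE 0.20). Zfyve1, which encodes a protein of the membrane where autophagosomes start, was at 9.53 and 9.67 in TCQA arrays and 10.33 and 9.97 in control arrays, a difference of -0.55 (SE 0.20). Among 14 genes of autophagosome fusion with lysosomes, 2 were higher (3.38% of all gene probe sets were) and 1 lower. The tethering gene Vps18 differed by 0.54 and the fusion gene Vamp8 by 0.55, with dim readings of Vamp8 in both groups and of Vps18 in control. The fusion gene Ykt6 was at 10.28 and 10.31 in TCQA arrays and 10.73 and 10.75 in control arrays, a close-set pair in each group at a difference of -0.44 (SE 0.17).

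Of 30 genes that sense nutrients at the lysosome 1 was higher and 0 lower at that p, against 3.38% and 2.86% of all gene probe sets. It was Deptor, an inhibitor of the mTOR kinase that restrains autophagy, with a difference of 0.65 (SE 0.23). Of 39 genes of the lysosomal membrane and its hydrolases 0 were higher and 1 lower, again close to or below those shares. Smpd1, the acid sphingomyelinase gene, was at 10.43 and 10.45 in TCQA arrays, against 10.91 and 10.93 in control arrays, a difference of -0.48 (SE 0.17). Of 18 cargo receptor and mitophagy genes, and of 15 further partners of the pump, 0 had an unadjusted p under 0.05. The list medians ran from -0.05 for initiation to 0.07 for nutrient sensing and for pump partners, beside 0.01 over all genes. For the 7 named genes limma's adjusted p was 0.787, so none passed over all genes.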

How the data were processed

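Total RNA of brain cortex was measured on Clariom S mouse arrays, 2 per group. Per the labels, the authors made the deposited log2 signals with the Transcriptome Analysis Console (version 4.0.2) and the SST-RMA algorithm, 1 value per probe set; limma is also named there. For the probes no genome build is given in the sources used here. Of 28846 probe sets 6640 controls were set aside. Of the other 22206, 19572 had 1 symbol, 0 several and 2634 none, and a check against the RefSeq gene table changed 0 symbols. Groups were compared in limma 3.58.1 (R 4.3.3) on the difference TCQA minus control, by lmFit and eBayes with two-sided p-values and Benjamini-Hochberg adjustment over all 22206. Residual degrees of freedom were 2 and prior ones 4.23. No filter on dim genes and no detection call was used, and in place of depth the number of arrays limits the precision: the median standard error of a member was 0.19. The fit was tested on simulated data.

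The members, the gene lists and the alternatives were chosen with earlier results of these data known. Readings per array are given for members with an unadjusted p under 0.05, the 5 largest differences in each direction and a list of core genes, and beyond that rule for other members as examples of their role. Alternatives were no moderation, a trended variance prior, dim genes left out, median centring, quantile normalization, a replicate block and leaving out each array.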

Additional observations from a re-analysis of the deposited data

How the results depend on the processing

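No member passed the adjusted threshold or the depositors' criterion under any of the 10 alternatives, and the median member difference lay between -0.05 and -0.0012. The count of members at an unadjusted p under 0.05, 0 in the fit reported, did change. It was 1 higher (Atp6v0a1) without moderation, 1 higher and 2 lower (Atp6ap1l and Map1lc3a) with a trended variance prior, 3 lower (Atg2a, Atp6ap1l and Map1lc3a) with dim genes left out, which tests fewer genes, and 1 lower (Atp6ap1l) with quantile normalization. Leaving out 1 array gave 1 to 2 lower and 0 higher. Over all gene probe sets the share at that p was 6.09% without moderation, 6.87% with the trended prior, 8.34% with dim genes left out, where 46 members were tested, and 6.29% with quantile normalization, so the members' counts were not above it. Over all genes the criterion was met by 83 probe sets, by 25 without moderation, by 36 with dim genes left out and by 160 to 291 without 1 array. The adjusted threshold was passed by 0 to 4 without 1 array, the 4 arising without TCQA replicate 1. The cause of these shifts was not tested. With the replicate block 1 of the 56 members was lower at that p (Atp6ap1l), while 6.42% of all gene probe sets had that p in either direction. In that fit 92 gene probe sets met the criterion. Deviations of same-numbered arrays correlated at 0.0507. With 2 arrays per group this is a single correlation, which cannot show whether same-numbered arrays share a batch. The labels give only the number. With 1 array left out, the lone array is assumed to vary like the other group, and 9 to 12 of the 56 members changed sign. The 2 arrays per group limit every interval here, and 10 members were dim on all 4 arrays.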
